A study of Mus musculus with 6 samples.

Results

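The 42 genes described here drive the passage from G1 into S phase and the copying of DNA. They were taken as a fixed list, and every probe whose platform annotation carries 1 of the 42 symbols was included. All 42 genes were found, with 89 probes, among 19057 genes and 45281 probes on the arrays. The brightest probe of each gene was used, and 38 of the 42 were above background on all 6 arrays. Cdk6 was above background on 5 arrays, and Slbp, Pola1 and Prim1 on none.

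The samples were T cell acute lymphoblastic leukemia (T-ALL) cells of mice, a leukemia of immature T cells, induced by NOTCH1 in every sample. Cells positive for GFP, CD4 and CD8 had been sorted out of the bone marrow 4 weeks after transplantation. Both groups thus carried the NOTCH1-induced leukemia, and all samples were labelled male. They differed by the state of Klf4, a DNA-binding factor known to slow the cell cycle in epithelia and lymphocytes: 3 arrays came from samples labelled wild type (control) and 3 from samples labelled knock out (Klf4-deficient). The labels used here name no strain, no age, no means of deleting Klf4 and no donor. Nothing states that the 3 samples of a group came from separate mice, so p-values measure only the spread between these samples, which may be technical.

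A cell enters S phase when D-type cyclins with Cdk4 or Cdk6, and then E-type cyclins with Cdk2, phosphorylate the retinoblastoma protein and free the E2F factors. E2F then raises transcription of the genes that license origins, unwind DNA, supply nucleotides and extend the new strands. In thymocytes and T-ALL, NOTCH1 signalling promotes growth and cell cycle entry, and cyclin D3 serves the expansion of immature T cells.

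Whole-array facts bear on what follows. The mean deposited signal was between 417 and 445 on 5 arrays and 359 on Klf4-deficient array 3. The first principal component of the genes above background on all arrays held 52.5% of the variance, with that array at 30.9 and the other arrays between -11.4 and 2.02. The Klf4 probe in use gave normalized signals of 41.5, 18.1 and 23.4 on control arrays 1, 2 and 3, against 82.1, 45.1 and 93.8 on the corresponding Klf4-deficient arrays, so it was higher, not lower, in the arrays labelled Klf4-deficient (log2 difference 1.03 ± 0.33 SE, adjusted p = 0.576 from limma). It was above background on 5 of the 6 arrays. The other 2 Klf4 probes were under background on every array, at most 6.9 in controls and listed at 0 in the Klf4-deficient group. Where that probe lies relative to the deleted part of Klf4 is unknown, so it may check nothing. Genes of double-positive T cells were present: 13 of 16 listed genes were measured, 12 of them above background on all arrays, and their summed signal was 94357 to 95306 in controls and 88214 to 92560 in Klf4-deficient arrays. Markers of other marrow cells were present too, although the cells had been sorted. Erythroid markers (16 of 20 measured) summed to between 33529 and 41845 in controls and between 43682 and 65366 in Klf4-deficient arrays. Monocyte and macrophage markers (19 of 20) summed to between 3986 and 5591 against 5055 to 14483, neutrophil markers (17 of 18) to between 72092 and 106607 against 76165 to 177132, NK and cytotoxic markers (11 of 12) to between 2008 and 3158 against 2638 to 4135, and B lineage markers (10 of 12) to between 1297 and 1888 against 1336 to 3747. The highest sum of each of the 5 lists was in Klf4-deficient array 3, but a sum follows its brightest genes. On that array Cd74 gave 2612 of the B lineage sum and Hba-a1 40570 of the erythroid sum. All 12 erythroid genes above background on all arrays were highest there. Of the 4 such B lineage genes, 2 had differences above 0 and 2 below, and Igll1 was lowest there (24.8). No array had a signal above background for Epb42, Cybb, Cd163, Mmp8, Pax5, Ncr1, Gzmb, Klrk1, Eomes or Tbx21.

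The sequence around the start sites of the genes was also searched. The list holds genes of functions that E2F raises, as said above, so the share of E2F letters is a description and no independent support. RefSeq promoters of assembly GRCm38.p6, each 300 bases long with 250 before and 50 after a start, were found for 34 of the 42 genes. The 8-letter E2F motif was searched on both strands in the forms TTTCCCGC, TTTCGCGC, TTTGCCGC and TTTGGCGC. It was present in promoters of 15 of the 34 genes (44.1%), against 704 of all 27025 genes in the table (2.6%). Counted by promoter, these were 15 of 41 (36.6%) and 744 of 32851 (2.26%). The CCAAT box (CCAAT) was present for 21 of the 34 genes (61.8%) against 41.1% of all genes. The cell cycle homology region (TTTGAA), an element of many G2/M genes, was present for 6 of the 34 (17.6%) against 20.2%. Of 21 E2F matches in these promoters 1 overlapped a CCAAT box, and 5 of the 15 genes had matches only after the start. A match is a run of letters and no evidence that a factor bound there.

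The stretches below are from the 9 genes above background on all arrays in which E2F letters lay wholly before the start. The start is that of the promoter used, which can differ from the start of the annotated gene. As annotated, Cdc6 and Mcm7 begin farther upstream, at 98907709 and 138172111, so their stretches lie inside the genes. Cdc25a begins at 109875518, within its marked letters. Capitals mark the E2F letters, and a run of 12 capitals is an overlapping pair of matches on opposite strands. They lie at chr8:75109336-75109387 (Mcm5, plus strand), chr1:128359725-128359835 (Mcm6, minus strand), chr5:138172021-138172068 (Mcm7, minus strand), chr8:95633498-95633545 (Gins3, plus strand), chr11:98907993-98908040 (Cdc6, plus strand), chr9:109875492-109875539 (Cdc25a, plus strand), chr10:128705164-128705211 (Cdk2, minus strand), chr13:29986064-29986094 (E2f3, minus strand) and chr5:151651209-151651238 (Rfc3, minus strand) in GRCm38.p6. Each is written 5′ to 3′ on the strand of its gene.
Mcm5: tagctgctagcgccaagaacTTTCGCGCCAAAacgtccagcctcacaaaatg
Mcm6: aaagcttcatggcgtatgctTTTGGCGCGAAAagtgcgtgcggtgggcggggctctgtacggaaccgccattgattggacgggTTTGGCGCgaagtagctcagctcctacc
Mcm7: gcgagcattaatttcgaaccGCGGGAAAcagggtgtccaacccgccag
Gins3: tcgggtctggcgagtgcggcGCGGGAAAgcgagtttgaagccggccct
Cdc6: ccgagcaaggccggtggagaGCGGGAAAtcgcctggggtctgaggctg
Cdc25a: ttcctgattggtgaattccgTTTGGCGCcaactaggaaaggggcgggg
Cdk2: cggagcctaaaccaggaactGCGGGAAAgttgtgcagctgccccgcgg
E2f3: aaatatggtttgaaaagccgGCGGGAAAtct
Rfc3: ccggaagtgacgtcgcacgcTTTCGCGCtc

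The first comparison asked whether loss of Klf4 went with other levels of these genes. None of the 42 passed between the groups, and the genes instead differed from array to array within both groups. In limma 0 of the 42 had an adjusted p under 0.05, where 2 of 19057 genes did (0.0105%). At an unadjusted p under 0.05, 0 were higher and 0 lower, against 3.49% of all genes higher and 4.1% lower. In 1 gene, Rfc4, every Klf4-deficient array was above every control, where 5.45% of all genes did this, and in 0 genes was every Klf4-deficient array below, where 6.11% did. Among the 8360 genes above background on all arrays these backgrounds were 7.49% higher and 10.1% lower. The median log2 difference of the 42, Klf4-deficient minus control, was -0.06, and that of all genes was 0.00. Of the 38 genes above background on all arrays, 14 lay above 0 and 24 below, from -0.28 (Gins1) to 0.60 (Ccnd2). For 36 of these 38 the 95% confidence interval of the difference lay within -1 and 1, that is, within a 2-fold change either way. The exceptions were Ccnd1 and Ccnd2. Signals below are on the quantile-normalized scale and in the order of replicates 1, 2 and 3, adjusted p-values are from limma over all genes, and errors of signals are SDs with n = 3.

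**Figure D1:**
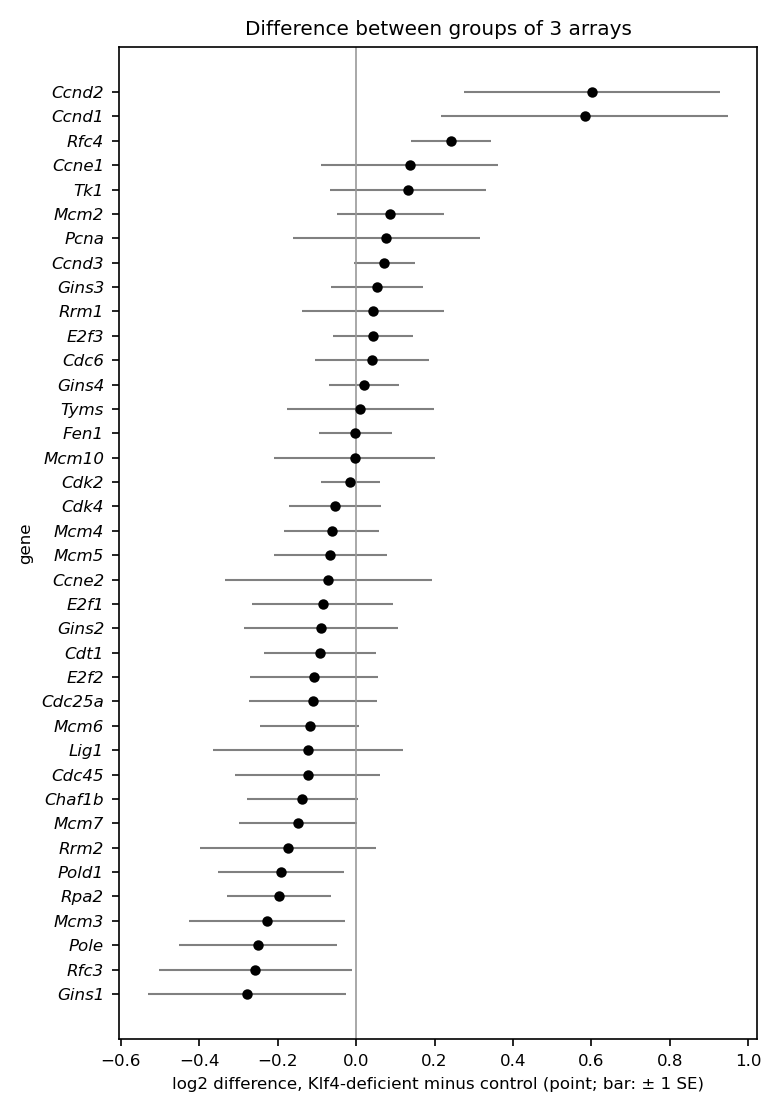
Log2 difference (Klf4-deficient minus control, x axis) of the 38 members above background on all arrays (y axis, genes), as points with bars of 1 SE from limma. Ccnd2 (0.60) and Ccnd1 (0.58) lie farthest to the right with the widest bars, Gins1 (-0.28) farthest to the left, and no gene passed at the adjusted threshold.

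Cyclins and kinases of G1/S came first. Ccnd3, which encodes cyclin D3, gave signals of 20390, 21567 and 23883 in controls against 23066, 23883 and 22126. The lowest normalized value was in a control and the groups overlapped (21947 ± 1778 against 23025 ± 879, log2 difference 0.07 ± 0.08 SE, adjusted p = 0.822). In the deposited values Klf4-deficient array 3 was the lowest (21659, 21381 and 25215 against 23679, 23830 and 18795). The Ccnd3 difference was -0.05 with no normalization, -0.02 with median centring and -0.02 for the mean of its probes. Ccnd2, the cyclin D2 gene, had 112, 168 and 139 against 140, 227 and 318. Klf4-deficient arrays 2 and 3 exceeded every control, and array 1 lay among the controls (140 ± 28.5 against 229 ± 88.9, 0.60 ± 0.33 SE, adjusted p = 0.772). Ccnd1, the cyclin D1 gene, had 82.1, 75.7 and 85.5 against 133, 73.7 and 214. Its controls lay close together, while Klf4-deficient arrays 1 and 3 were above them and array 2 below (81.1 ± 4.9 against 140 ± 70.4, 0.58 ± 0.37 SE, adjusted p = 0.787). The second probe of Ccnd1 had 42.4, 63.2 and 61.8 against 77.6, 69.9 and 147, without overlap. A second probe of Ccnd2 had 58.7, 106 and 79.9 against 100, 121 and 226, also highest in Klf4-deficient array 3. The remaining probe of Ccnd1 and both remaining probes of Ccnd2 were above background on 3 arrays or fewer. Over the alternatives tried the difference of Ccnd1 ran from 0.25 without Klf4-deficient array 3 to 0.93 without Klf4-deficient array 2, with 0.26 under array weights and 0.36 for the mean of its probes. That of Ccnd2 ran from 0.24 for the mean of its probes to 0.89 without Klf4-deficient array 1, with 0.34 when Klf4-deficient array 3 was left out. The highest Ccnd1 and Ccnd2 signals were on the array with the highest sums of erythroid, monocyte and neutrophil markers, whose part in these values was not tested. In sorted bulk cells, a change in the number of cells of a type and a change in the RNA of each cell cannot be told apart.

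The E-type cyclins switch on Cdk2 at the end of G1. Ccne1 had 120, 223 and 185 in controls against 201, 181 and 186, so the controls spread over the widest range and the others lay within it (log2 difference 0.14 ± 0.23 SE). Ccne2 had 113, 168 and 160 against 184, 140 and 98.4, with the highest and the lowest value both in the Klf4-deficient group (-0.07 ± 0.26 SE). Cdk2, the kinase partner of cyclin E, had 4180, 4770 and 4324 against 4624, 4448 and 4067. The values overlapped throughout (4424 ± 307 against 4379 ± 285, -0.01 ± 0.07 SE), and the 95% interval ran from -0.21 to 0.18. Cdk4, the partner of D cyclins, had 1777, 1602 and 1815 against 1917, 1656 and 1455 (-0.05 ± 0.12 SE). Cdk6, the other such kinase, lay near the background limit, at 34.5, 22.4 and 29.8 against 24.4, 24.7 and 7.9, and was under it on 1 Klf4-deficient array. Cdc25a, the phosphatase that activates Cdk2, had 1181, 1227 and 1239 against 1425, 938 and 1064. With this probe the controls agreed closely and the Klf4-deficient arrays lay on both sides of them (-0.11 ± 0.16 SE). The second Cdc25a probe had its wider range in controls, at 64.5, 33.9 and 44.6 against 46.7, 43.9 and 52.4 (0.02 ± 0.20 SE).

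The E2F activators switch on the S phase genes. E2f1 had 996, 1384 and 1258 in controls against 1347, 1110 and 969. E2f2 had 6348, 8537 and 8129 against 8023, 7198 and 6097. In both genes the 2 lowest signals were control array 1 and Klf4-deficient array 3, and the groups overlapped (log2 differences -0.09 ± 0.18 and -0.11 ± 0.16 SE). E2f3 varied less, with 256, 252 and 291 against 290, 296 and 241 (0.04 ± 0.10 SE).

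Licensing and helicase genes load and start the replicative helicase. The 6 genes of the MCM2-7 ring, its motor, had log2 differences from -0.23 (Mcm3) to 0.09 (Mcm2). Mcm5 had 6364, 8322 and 7607 in controls against 7963, 7138 and 6179 (7431 ± 991 and 7094 ± 893, log2 -0.07 ± 0.14 SE, adjusted p = 0.972). Mcm2 had 1680, 2138 and 2231 against 2340, 2124 and 1936, and Mcm4 had 6436, 7776 and 7974 against 7525, 7455 and 6255. Mcm3 showed the widest span of the ring, at 758, 970 and 978 against 901, 829 and 594, a 1.65-fold range from lowest to highest. In each of these 4 genes control array 1 was the lowest control and Klf4-deficient array 3 the lowest of its group. Mcm6 had 3872, 3842 and 4088 against 4217, 3675 and 3060 with the probe in use. Here the controls were close together and only Klf4-deficient array 3 was far below them. Its other detected probes had 2290, 2763 and 2832 against 3020, 2577 and 2055, and 623, 788 and 642 against 825, 717 and 673. In both of these control array 1 was the lowest control. Mcm7 had 1129, 1435 and 1315 against 1390, 1083 and 1036 (-0.15 ± 0.15 SE).

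Cdc6 and Cdt1 bring the MCM ring to origins. Cdc6 had 285, 363 and 360 against 381, 366 and 292, and Cdt1 had 1564, 2047 and 1831 against 1846, 1796 and 1458. Cdc45 and the 4 GINS genes complete the active helicase, and Mcm10 helps to start it. Gins1 spread most, at 611, 1000 and 934 against 722, 806 and 542 (848 ± 208 and 690 ± 135, log2 -0.28 ± 0.25 SE, adjusted p = 0.787). Cdc45 had 1039, 1404 and 1321 against 1368, 1143 and 948. Mcm10, Gins2, Gins3 and Gins4 had log2 differences between -0.09 and 0.05. Of the 14 licensing and helicase genes, 11 were lowest on Klf4-deficient array 3 and 3 on control array 1. Of all genes above background on all arrays, 47.5% were lowest on 1 of these 2 arrays.

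Polymerase and fork genes build the new strands. Pold1, the catalytic subunit of polymerase delta, had 2471, 2897 and 3175 against 2917, 2504 and 2083 (log2 -0.19 ± 0.16 SE, adjusted p = 0.787). Pole, that of polymerase epsilon, had 238, 292 and 264 against 276, 230 and 165 (-0.25 ± 0.20 SE, adjusted p = 0.787). Both were lowest on Klf4-deficient array 3, and in both Klf4-deficient array 1 lay within the range of the controls. Pcna, the sliding clamp, had 98.3, 152 and 120 against 160, 141 and 95.4 (0.08 ± 0.24 SE). Rfc3 and Rfc4 belong to the clamp loader, and their differences had opposite signs. Rfc4 had 424, 516 and 510 against 608, 590 and 522 (483 ± 51.8 and 573 ± 45.2, log2 0.24 ± 0.10 SE, adjusted p = 0.719). Its groups did not overlap, but the lowest Klf4-deficient value, 522, lay close to the highest control, 516. In the deposited values, before normalization, the groups overlapped (459, 508 and 537 against 614, 607 and 447), and Klf4-deficient array 3 was the lowest of the 6. The log2 difference was 0.13 with no normalization, 0.16 with median centring and 0.15 without control array 1. The second Rfc4 probe, above background on 5 arrays, differed by -0.24 ± 0.21 SE, and with the mean of both probes the difference was 0.00. Rfc3 had 79.3, 115 and 111 against 113, 76.3 and 62.1 (-0.26 ± 0.25 SE). Rpa2, a subunit of the single-strand binding protein, had 522, 610 and 588 against 590, 481 and 433 (-0.20 ± 0.13 SE). Fen1 and Lig1, which trim and join Okazaki fragments, differed by 0.00 ± 0.09 and -0.12 ± 0.24 SE. Lig1 was at 999 on Klf4-deficient array 3, against 1214 to 1689 on the other arrays.

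Nucleotide supply showed the array order in all 4 of its genes. Rrm2, the regulated subunit of ribonucleotide reductase, had 828, 1400 and 1268 in controls against 1054, 1083 and 896 (1166 ± 299 and 1011 ± 101, log2 -0.17 ± 0.22 SE). Tk1, thymidine kinase, had 1514, 2375 and 1980 against 2368, 2162 and 1835 (0.13 ± 0.20 SE). Tyms, thymidylate synthase, had 2246, 2920 and 2630 against 3156, 2680 and 2086 (0.01 ± 0.19 SE). Rrm1, the large reductase subunit, had 2398, 3134 and 3196 against 3356, 3217 and 2435 (0.04 ± 0.18 SE). In each of the 4 genes control array 1 and Klf4-deficient array 3 were the 2 lowest arrays, against 12.4% of all genes above background on all arrays. Chaf1b, a subunit of the chaperone that puts histones on new DNA, had 1082, 1416 and 1337 against 1236, 1240 and 1002 (-0.14 ± 0.14 SE), with the same 2 arrays lowest. The single probes of Slbp, which binds histone mRNA, and of Pola1 and Prim1, of the polymerase that lays primers, gave no signal above background, so no fold is given for them.

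**Figure D2:**
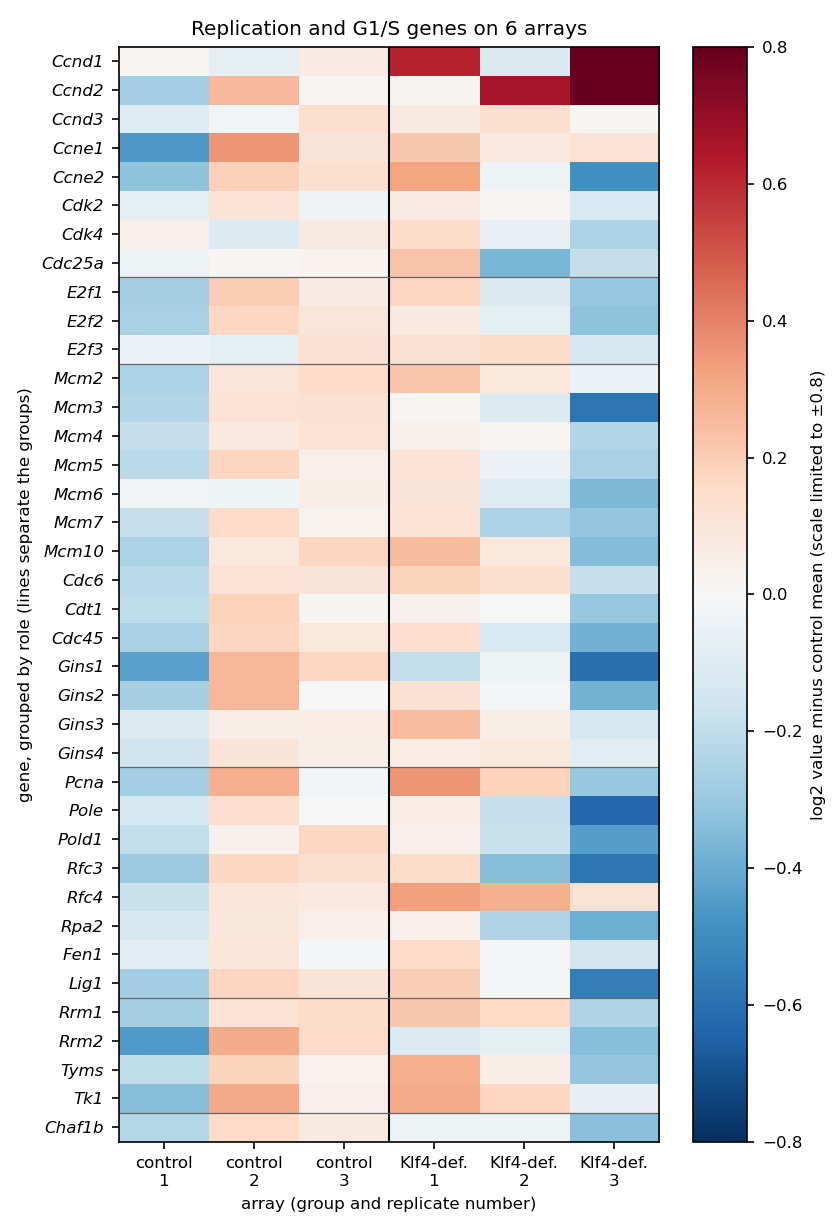
Log2 signal minus the mean of the 3 controls (colour, limited to ±0.8) for the 38 members above background on all arrays (rows, grouped by role) on 6 arrays (columns). Blue columns at control array 1 (median -0.22) and Klf4-deficient array 3 (median -0.30) cross most rows, while Ccnd1 and Ccnd2 are red on Klf4-deficient array 3.

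The spread within the groups exceeded the difference between them for most members. In 34 of the 38 genes (89.5%) the range of the 3 controls was larger than the difference between groups, which was so for 73.8% of the 8360 genes above background on all arrays. Relative to the control mean, the median of the 38 genes was -0.22, 0.13 and 0.07 on control arrays 1, 2 and 3, and 0.13, -0.01 and -0.30 on Klf4-deficient arrays 1, 2 and 3. The same medians over all 8360 genes lay between -0.04 and 0.01. Control array 1 was the lowest control in 34 of the 38 genes (89.5%, against 37.7% of all). Klf4-deficient array 3 was the lowest of its group in 34 of the 38 (89.5%, against 44.3%). These 2 arrays were the lowest pair of all 6 in 25 of the 38 genes (65.8%, against 12.4%). The genes are measured on the same arrays and are not independent, so these shares are a description.

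The size of the dip on Klf4-deficient array 3 differed between normalizations. With arrays centred on their median the members' median there was -0.57, where all genes lay at -0.28, and with no normalization it was -0.58, where all genes lay at -0.29. With no normalization, the median difference between groups over all 8360 genes moved to -0.11, and that of the 42 members to -0.15. Cyclic loess gave -0.24 for the members on that array, where all genes lay at 0.02. Control array 1 stayed between -0.22 and -0.17 under the settings tried for scaling and offset. Leaving out single arrays turned the sign of the members' median difference: it was 0.02 without control array 2 and 0.04 without Klf4-deficient array 3. Leaving out control array 1 gave -0.13, and leaving out Klf4-deficient array 1 gave -0.14. No member passed in any of these fits. Erythroid markers above background on all arrays lay at 2.40 on Klf4-deficient array 3 but at -0.53 on control array 1, relative to the control mean. Monocyte markers lay at 1.27 and -0.33 and neutrophil markers at 1.52 and -0.04 on these arrays. The erythroid medians on these 2 arrays were the highest and the lowest of the 6. The part of these cells in the low values of either array was not tested.

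Per gene, the SD of log2 signal over 3 arrays had a median of 0.20 in the control group and 0.22 in the Klf4-deficient group. Over all 8360 genes the medians were 0.11 and 0.14. The members' medians were further apart with arrays centred on their median (0.16 in controls against 0.37) and with no normalization (0.18 against 0.35). The Klf4-deficient SD was the larger in 22 of the 38 members (57.9%) and in 61.9% of all genes. The extremes were single genes, with the probe in use: the SD of Ccnd1 was 0.07 in controls but 0.68 in the Klf4-deficient group, and Cdc25a 0.04 and 0.31. The second Cdc25a probe, above background on all arrays, instead spread more in controls (64.5, 33.9 and 44.6 against 46.7, 43.9 and 52.4). Ccne1 had the larger SD in controls, with 0.42 there and 0.07 in Klf4-deficient arrays, and so did Rrm2, with 0.40 and 0.15. The second Rrm2 probe, above background on all arrays, instead spread more in Klf4-deficient arrays (363, 450.7 and 433.2 against 471.5, 400.4 and 264). With 3 arrays per group no test of the spread of a single gene was made. Among the 3 cyclin genes of the D type, Ccnd3 alone had an SD below 0.12 in both groups with the probe in use, after quantile normalization. Before normalization, this probe lay at 18795 on Klf4-deficient array 3, against 23679 and 23830 on Klf4-deficient arrays 1 and 2. A second Ccnd3 probe, also above background on all arrays, varied more in both groups. It had 1097, 1423 and 1488 in controls against 1270, 1471 and 1043, lowest on Klf4-deficient array 3.

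**Figure D3:**
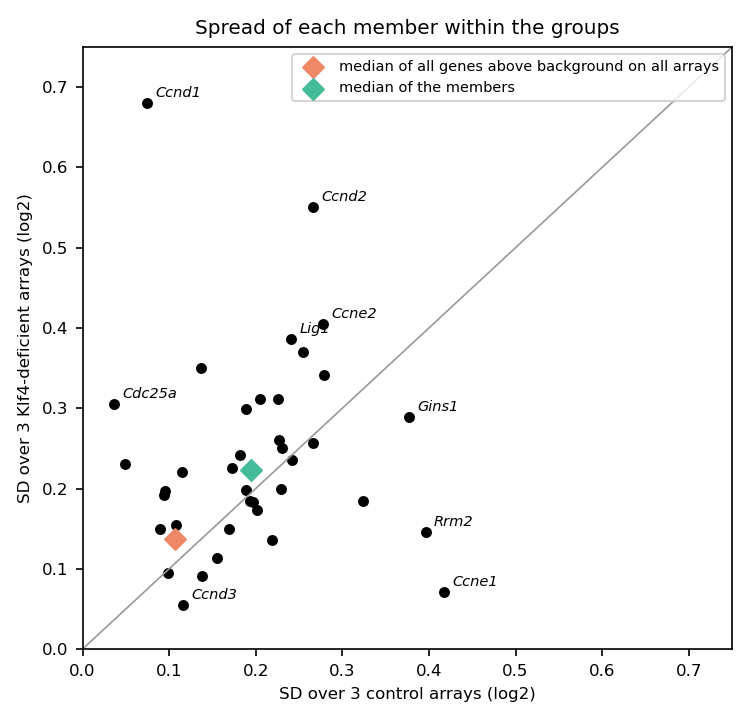
SD of quantile-normalized log2 signal over the 3 Klf4-deficient arrays (y axis) against the 3 control arrays (x axis), 1 black point per member (its brightest probe), with the line of equality. The median of the members (0.20, 0.22) lies above that of all genes (0.11, 0.14) on both axes, and Ccnd1, Ccnd2 and Cdc25a stand far above the line; with no normalization the members' medians were 0.18 and 0.35.

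Control array 1 and Klf4-deficient array 3 had the lowest medians both in genes with the E2F letters and in genes without them. The 14 measured genes whose promoters hold the motif lay at -0.20 on control array 1 and -0.31 on Klf4-deficient array 3, and the 16 whose promoters lack it at -0.25 and -0.28. Their median differences between groups were -0.11 and 0.00. Control array 1 or Klf4-deficient array 3 was lowest in 13 of the 14 and in 16 of the 16, against 47.5% of all genes above background on all arrays. For the remaining 8 genes no promoter was matched. A promoter without the letters is no evidence that E2F does not act on its gene. The E2f1 promoter used, for instance, lay wholly inside the annotated gene.

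Second probes of the same genes were examined in the same way. Of the 89 probes, 66 were above background on all arrays, among them 28 additional probes of 18 genes. In 27 of these 28 the lowest array was control array 1 or Klf4-deficient array 3, against 47.5% of all genes above background on all arrays. These probes read the same genes on the same arrays, so they are not independent of the probes in use. The sign of the group difference matched the probe in use in 20 of the 28. Mcm6, for instance, differed by -0.12 ± 0.13 SE with the probe in use and by -0.05 ± 0.17 and 0.11 ± 0.12 SE with its other detected probes.

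Other genes of the pathway were taken from lists made up by function, though with earlier results of these data known. The genes named below are the 3 with the smallest p in each list. A lack of overlap between groups is therefore favoured by that choice. Of 41 measured further replication genes (origin recognition, polymerase accessory subunits, clamp loader, nucleotide enzymes), 0 passed in limma, and the median difference was -0.02. An unadjusted p under 0.05 was reached by 1 that was higher and 1 that was lower, against 3.49% and 4.1% of all genes. Dck, deoxycytidine kinase of the salvage route, had 445, 404 and 436 in controls against 345, 349 and 339, without overlap (log2 -0.30 ± 0.04 SE, adjusted p = 0.352). Pole4, a small subunit of polymerase epsilon, had 139, 134 and 133 against 169, 150 and 187 (0.28 ± 0.09 SE, adjusted p = 0.55). Rpa1, the large single-strand binding subunit, also did not overlap and differed by -0.14 ± 0.06 SE (adjusted p = 0.706). The 35 of these genes above background on all arrays lay at -0.13 on control array 1 and -0.22 on Klf4-deficient array 3, and both arrays were the lowest pair in 20 of them (57.1%).

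Regulators of G1/S beyond the 42 (E2F partners, retinoblastoma family, kinase inhibitors, Skp2 and others) had the same pair lowest in 3 of 21 genes (14.3%), near the 12.4% of all genes; whether this share differs from that of the members was not tested. Of 26 measured, 0 passed in limma, and Cdkn1a, which was higher, had the single unadjusted p under 0.05, against 3.49% of all genes higher. Cdkn1a, the inhibitor p21, had 39.8, 30.7 and 26.3 against 78.6, 53.6 and 69.8, without overlap (log2 0.79 ± 0.19 SE, adjusted p = 0.484). Skp2, which targets the inhibitor p27 for breakdown, had 112, 129 and 106 against 104, 79.9 and 68, without overlap (-0.41 ± 0.16 SE, adjusted p = 0.682). E2f4, an E2F of the repressor class, differed by 0.23 ± 0.09 SE (adjusted p = 0.684). Genes of G2/M resembled the replication genes in this respect. Their median lay at -0.26 on control array 1 and -0.36 on Klf4-deficient array 3, and the pair was lowest in 18 of 22 (81.8%). Pttg1, which encodes securin, differed by -0.24 ± 0.17 SE (adjusted p = 0.787), and the other 2 with the smallest p, Ttk and Nek2, were under background on every array. The number of members and of G2/M genes with this order was not compared by a test.

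**Figure D4:**
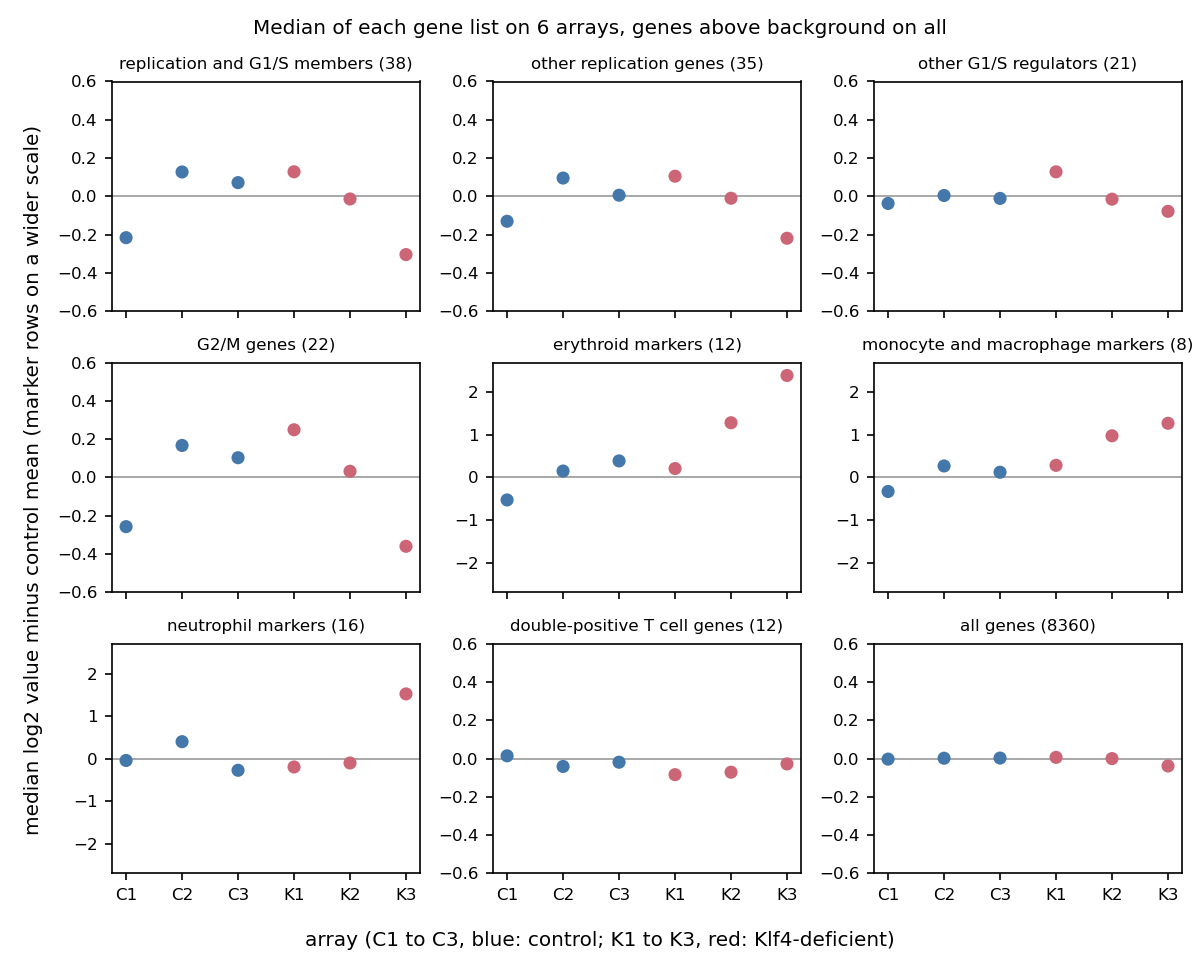
Median log2 signal minus the control mean (y axis) of each gene list on control arrays 1 to 3 (C1 to C3, blue) and Klf4-deficient arrays 1 to 3 (K1 to K3, red), with the number of genes above background on all arrays in brackets; marker panels have a wider scale. Replication, further replication and G2/M genes dip at C1 and K3, while erythroid markers are lowest at C1 (-0.53) and highest at K3 (2.40).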

How the data were processed

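RNA of 6 sorted samples was hybridised to Illumina bead arrays by a service company, per the labels' protocols. The deposited intensity of each probe is on a linear scale and can be negative, and the submitters' processing notes name BeadStudio. The labels used here state no background method, normalization or detection p-value. Negative values were replaced by 0, 16 was added, and log2 values were quantile normalized; a normalized signal is 2 to this power minus 16. Of 45281 probes 34885 had 1 symbol, 18 several and 10378 none here. A gene was represented by its brightest probe, and 9172 genes had several. The background limit, defined after the data were seen, was 3 times the SD of the mirrored negative values, 21.8 to 23.7 by array. Groups were compared with limma 3.58.1 in R 4.3.3 (lmFit, eBayes with a variance trend), adjusted by Benjamini-Hochberg over 19057 genes at 0.05, and the code was tested on simulated data. An exact permutation test of 3 against 3 cannot go below 0.1 and was not used. Members and lists were chosen with earlier results of these data known. Every member was named, with up to 3 genes per further list by smallest p. The number of arrays limits the precision. Alternatives covered scaling, offset, probe choice, moderation, array weights, the replicate block and leaving out arrays.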

Additional observations from a re-analysis of the deposited data

How the results depend on the processing

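Over 17 alternatives and every probe fitted on its own, 0 of the 42 members were called in limma. Their median difference ran from -0.15 (no normalization) to 0.04 (without Klf4-deficient array 3), and from -0.14 to 0.04 over the fits that left out 1 array. Of the 38 members above background on all arrays, 13 kept their sign in all 17 alternatives. The median SD of the members in Klf4-deficient arrays was 0.37 with median centring and 0.35 with no normalization, against 0.22, while in controls it was 0.16 and 0.18, against 0.20. The cause was not tested. The number of members lowest on control array 1 or Klf4-deficient array 3 was 35 to 37 of 38 under other scalings, offsets and probe means, which were added for this count after the data were seen. Over all genes above background on all arrays the share was 40.1% with cyclic loess and 47.5% with offsets of 1 or 50. It was 70.1% with median centring and 69.9% with no normalization, the settings in which the members reached 37 of 38. With the replicate block 0 members were called and the median difference was -0.06. Same-numbered arrays correlated at 0.15, -0.03 and -0.24 in their deviations from the group mean, and arrays of different numbers at -0.29 to 0.25. Deviations from a mean of 3 arrays depend on each other, so these values cannot decide whether same-numbered arrays were paired. Over all genes the count called was 2, 0 with the block or with probes averaged by gene, and with no normalization or an offset of 1 it was 5, and with 1 array left out 3 to 23. It was 1 with median centring, cyclic loess, an offset of 50, no variance trend and robust moderation. The 3 members under background everywhere carry no information on the level of these genes.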
